A study of Mus musculus with 18 samples.

Results

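The genes described here code for nuclear-encoded subunits of the mitochondrial respiratory chain and ATP synthase, taken as every symbol in the deposited signal table that begins with Nduf, Uqcr or Atp5, that has Cox followed by a number from 4 to 8, or that equals Sdha, Sdhb, Sdhc, Sdhd or Cyc1. The rule found 74 of 18118 symbols. They comprised 31 genes of complex I, Ndufaf1 as 1 assembly factor of complex I, 3 genes of complex II, 7 of complex III, 16 of complex IV and 16 of complex V. Sdha, the flavoprotein of complex II, is not analysed here. Of the 74 genes, 66 passed the filter on dim genes and were tested. The other 8 genes, Atp5j, Atp5k, Cox4i2, Cox8c, Ndufab1, Ndufs1, Sdhc and Uqcrfs1, did not pass it. Ndufb9, the gene named as marker of the set, was measured on all 18 arrays.

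Expression was measured on 18 mouse beadchip arrays in 6 groups of 3. Induced beta cells were collected 10 days, 30 days, 60 days or 7 months after adenovirus injection into the pancreas (splenic lobe), and were compared with endogenous beta cells, which make insulin, and with acinar cells, which make digestive enzymes. Every group came from mice that carry Rag1-/-, and so lack mature T and B cells. The labels state that islets were removed first, that the acinar fraction was dissociated, and that induced cells were sorted on a red fluorescent marker, Cherry. They do not name the viral genes, give the age of the mice, or say how beta cells and acinar cells were collected. The labels do not tie the arrays of any group to different mice, so the p-values measure the spread between these arrays, which may be technical.

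The respiratory chain passes electrons from NADH (complex I) and succinate (complex II) through complex III and cytochrome c to oxygen at complex IV, and the proton gradient built on the way drives ATP synthase (complex V). In beta cells, ATP from this pathway couples glucose breakdown to insulin release. Acinar cells spend it on protein synthesis and secretion.

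The promoters of these genes often carry sites for nuclear respiratory factor 1 (NRF1) and for ETS factors such as the GA-binding protein. RefSeq promoter windows of the GRCm38.p6 build matched 60 of the 74 genes, and the 250 bases before the start site were searched on both strands. The NRF1 motif, GCGCA and GCGC with 1 base of any kind between them, was present in 10 of 60 genes (16.7%), against 4.23% of 27025 genes with a window. The ETS motif CCGGAAG was present in 13 genes (21.7%), against 7.83% of all genes. CCAAT, the box bound by NF-Y, was present in 24 genes (40%), against 37.5% of all genes, and TATAAA in 5 genes (8.33%), against 14.3%. The YY1 motif AAGATGGC was found in 1 gene (1.67%), against 1.83% of all genes. The ETS and YY1 motifs can share the letters AAG. A match is a description of the letters, not a bound site.

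The upstream sequences of 4 of the genes named below are shown 5′ to 3′, with matches to these motifs in capitals. Each ends at the base before the start site. Ndufb9, Uqcrb and Cox6a2 had no matched window, and the windows of Ndufb5, Ndufb10 and Cox7a2 held none of these motifs. Ndufb4 (complex I), Sdhd (complex II) and Atp5b (complex V) were lower late after induction, whereas Cox6a1 (complex IV) did not pass the test over the induced ages on the quantile scale, with more negative values under the other scalings. The Ndufb4 window lies at chr16:37654369-37654618 on the minus strand and holds 3 NRF1 matches and 1 CCAAT match. The Sdhd window lies at chr9:50603850-50604099 on the minus strand and holds 1 NRF1 and 1 ETS match. The Atp5b window lies at chr10:128083057-128083306 on the plus strand and holds 5 CCAAT matches on either strand. The Cox6a1 window lies at chr5:115348959-115349208 on the minus strand and holds 2 NRF1 matches, 1 ETS match and 1 CCAAT match.
Ndufb4: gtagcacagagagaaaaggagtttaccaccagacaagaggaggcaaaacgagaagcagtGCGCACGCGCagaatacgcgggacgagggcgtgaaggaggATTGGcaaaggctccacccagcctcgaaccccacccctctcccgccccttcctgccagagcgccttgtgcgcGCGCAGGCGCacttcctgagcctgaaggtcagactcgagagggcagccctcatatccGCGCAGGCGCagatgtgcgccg
Sdhd: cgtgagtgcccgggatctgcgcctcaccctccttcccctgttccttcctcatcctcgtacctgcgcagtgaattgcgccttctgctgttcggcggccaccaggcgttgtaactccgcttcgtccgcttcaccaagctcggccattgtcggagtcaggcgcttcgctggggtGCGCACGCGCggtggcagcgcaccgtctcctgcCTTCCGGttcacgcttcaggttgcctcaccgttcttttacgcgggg
Atp5b: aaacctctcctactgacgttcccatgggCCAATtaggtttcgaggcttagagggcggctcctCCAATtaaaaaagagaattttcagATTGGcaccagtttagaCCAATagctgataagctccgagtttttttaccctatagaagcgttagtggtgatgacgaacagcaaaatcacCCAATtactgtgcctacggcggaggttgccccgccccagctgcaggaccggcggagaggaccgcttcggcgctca
Cox6a1: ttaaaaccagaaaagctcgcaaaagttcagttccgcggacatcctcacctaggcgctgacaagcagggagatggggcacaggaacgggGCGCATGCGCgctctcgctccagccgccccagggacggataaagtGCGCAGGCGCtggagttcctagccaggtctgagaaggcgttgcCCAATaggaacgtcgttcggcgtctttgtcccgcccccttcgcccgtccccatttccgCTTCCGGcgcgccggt

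Of the 14 genes with a window that were lower by over 2-fold at 7 months than at day 10, 3 held the NRF1 motif and 4 the ETS motif, against 6 and 8 of the 42 other tested genes. Motifs therefore stood both in genes with a large difference and in genes without one.

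Before the results, a feature of the late arrays has to be stated. Across all tested genes, the day 60 and 7-month arrays with the same replicate number correlated at 0.997 (lowest to highest 0.9966 to 0.9972), whereas those with different numbers correlated at 0.976 to 0.984. Arrays of 1 group correlated at 0.976 to 0.985 at 7 months and at 0.976 to 0.984 at day 60, against 0.994 to 0.998 in the other groups. The day 60 and 7-month groups therefore may not be independent of each other, and each is also given with the other left out. They are not compared with each other here. Median signals per array ranged from 56.8 to 81.6 and detected genes from 5990 to 7745.

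A second feature concerns the scale. Levels are log2 intensities after background correction and quantile normalization, which forces every array to 1 distribution. With median scaling in its place, or with the deposited series matrix values, the median over all 8942 tested genes stood 0.42 to 1.06 higher on the log2 scale in the other groups than in acinar cells. Between induced and beta cells the same median was -0.15 to -0.42 with median scaling, and between 7 months and day 10 it lay from -0.05 to 0.01 under the 3 scalings. Each comparison is therefore also given as the number of genes called in 1 direction under all 3 scalings.

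Levels of the respiratory chain genes were lower at 7 months than at day 10 after induction. Of the 66 tested genes, 48 (72.7%) fell and 6 rose at a Benjamini-Hochberg adjusted p under 0.05 in limma, against 39.6% of all tested genes called lower and 35.5% called higher. The median difference of the 66 genes was -0.51 on the log2 scale, against -0.05 over all tested genes. It was -1.02 with median scaling and -0.85 with the series matrix values, against -0.05 and 0.01 over all tested genes. All 48 were called lower under each of the 3 scalings, where 31.9% of all genes were, and 3 genes were called higher under each, where 31.3% of all genes were. With the day 60 arrays left out, 49 genes were lower and 7 higher. In RNA from pooled cells, fewer cells of a type and less RNA per cell cannot be told apart.

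The size of the difference varied within the set. By over 2-fold, 19 of 66 genes (28.8%) were lower, against 13.1% of all genes, and these 19 genes came from each of the 5 complexes. They included 7 of 29 complex I genes, both tested complex II genes, 1 of 6 complex III genes, 4 of 14 complex IV genes and 5 of 14 complex V genes. On the quantile scale 12 genes were not called, whereas median scaling called 60 genes lower and 3 higher and the series matrix values 59 and 3. By over 2-fold under all 3 scalings, 15 of the 66 genes were lower, against 6.09% of all genes.

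**Figure D1:**
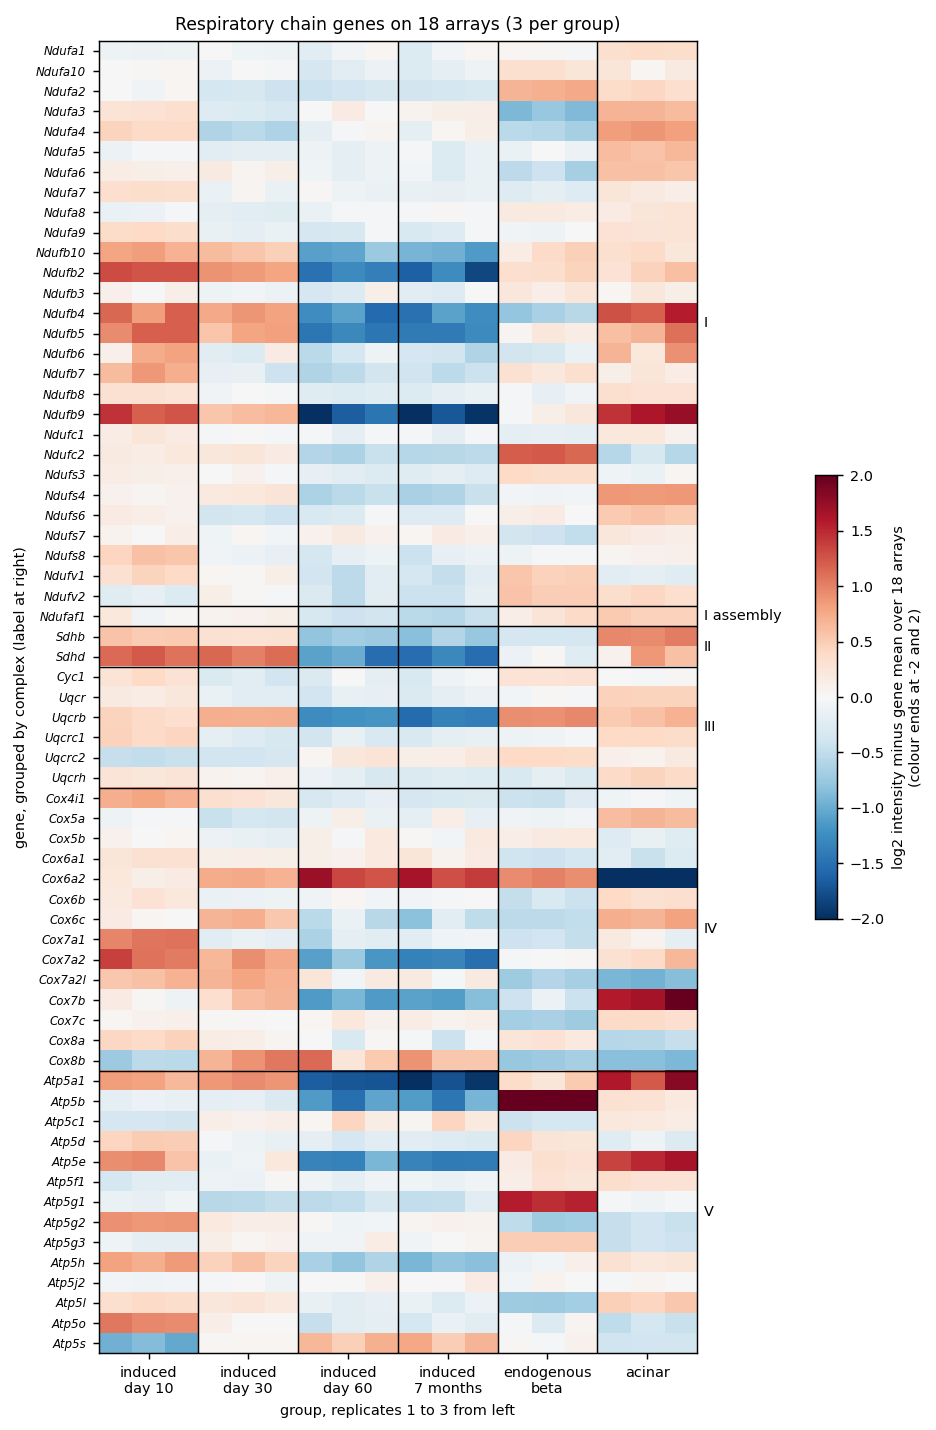
Each line of the map is a tested gene and each column 1 of 18 arrays, with induced cells from day 10 to 7 months, then beta cells and acinar cells. Colour gives the log2 intensity minus the gene's mean over all arrays, with red above and blue below; Ndufb9, Ndufb2, Ndufb4, Ndufb5, Atp5a1, Uqcrb and Sdhd are blue on the day 60 and 7-month arrays, while their neighbours of the same complex are mostly pale there.

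Complex I takes electrons from NADH, and its Ndufb genes code for accessory subunits of the membrane arm. Ndufb9 had log2 levels of 6.81, 7.10 and 6.85 at 7 months, against 10.25, 10.01 and 10.07 at day 10, 8.78, 8.92 and 9.03 in beta cells and 10.25, 10.42 and 10.54 in acinar cells. The 7-month arrays lay below every day 10, beta and acinar array. The deposited signals, before any correction, were 155, 192 and 176 at 7 months, against 1435, 1154 and 1208 at day 10. The difference between 7 months and day 10 was -3.19 ± 0.14 (SE), or 9.12-fold lower, with an adjusted p of 1.9e-11 in limma. It was the most negative of the 66 tested genes on the quantile scale, where their median was -0.51.

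The step in Ndufb9 lay between day 30 and day 60. Its mean level was 10.11 ± 0.13 at day 10, 9.42 ± 0.06 at day 30, 7.07 ± 0.32 at day 60 and 6.92 ± 0.16 at 7 months (SD, n = 3 each). Ndufb2, another membrane arm subunit, had 6.25, 6.63 and 6.08 at 7 months, against 9.19, 9.15 and 9.14 at day 10. Its difference was -2.84 ± 0.11, with an adjusted p of 9.5e-12 in limma. Ndufb5 had 7.01, 7.01 and 7.15 at 7 months, against 9.37, 9.63 and 9.63 at day 10. Neither gene's groups overlapped.

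Of the 9 tested Ndufb genes, 8 were lower at 7 months than at day 10, 6 of them by over 2-fold, with a median difference of -1.79. Of the 10 tested Ndufa genes, which code for other accessory subunits, 7 were lower and none by over 2-fold, with a median of -0.25. This split by symbol was chosen after the values had been seen, and its values are on the quantile scale. All 29 tested complex I genes were lower with median scaling, and 28 with the series matrix values. Mean day 10 levels ran from 10.22 to 12.41 in the tested Ndufa genes. Ndufb2, Ndufb4, Ndufb5, Ndufb6 and Ndufb7 had 7.34 to 9.54 there, and the other tested Ndufb genes 10.11 to 12.61. Whether the split follows brightness was not tested. Ndufb4 was not measured at 7 months or day 60 and was at least 4.05-fold lower at 7 months than at day 10. Ndufb10 (-1.79 ± 0.10) and Ndufb7 (-1.19 ± 0.09) fell as well, and Ndufb8, at -0.50, lay nearest the median of the 66 genes. Ndufb3 did not pass the test at -0.23 ± 0.10 (adjusted p = 0.054 in limma).

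Ndufv1, the NADH-binding flavoprotein and a core subunit of complex I, had 11.44, 11.32 and 11.57 at 7 months, against 12.10, 12.24 and 12.19 at day 10, or -0.73 ± 0.08. It was lower without overlap between the groups. Ndufs1 was not tested. Ndufa1 showed no call, with 12.24, 12.46 and 12.56 at 7 months, against 12.41, 12.41 and 12.42 at day 10 (0.01 ± 0.08), but its difference was -0.65 with median scaling and -0.50 with the series matrix values.

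Complex II oxidises succinate and also belongs to the tricarboxylic acid cycle. Sdhd, a membrane anchor, had 5.993, 6.223 and 5.995 at 7 months, against 8.65, 8.74 and 8.61 at day 10, a difference of -2.60 ± 0.17. Sdhb, the iron-sulfur subunit, had 8.15, 8.40 and 8.22 at 7 months, against 9.54, 9.49 and 9.49 at day 10, a difference of -1.25 ± 0.06. Both fell, and neither gene's arrays overlapped.

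Complex III passes electrons from quinol to cytochrome c. Uqcrb, a small subunit of its quinone-binding region, had the smallest p of the 66 genes in the F-test over the 4 induced ages (adjusted p = 4.4e-13 in limma). Its levels were 11.09, 11.03 and 10.99 at day 10, 11.38, 11.35 and 11.37 at day 30, 9.38, 9.44 and 9.47 at day 60, and 9.11, 9.29 and 9.26 at 7 months. The level at 7 months was 3.53-fold lower than at day 10 (-1.82 ± 0.06), and the drop again lay between day 30 and day 60.

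Uqcrc2, a core protein of the same complex, had 12.06, 12.08 and 12.17 at 7 months, against 11.48, 11.45 and 11.49 at day 10. It rose by 0.62 ± 0.06, but with median scaling the difference was 0.04. It was not called higher with either of the other scalings, so that the call depended on the scale. Uqcrc1, the other core protein (-0.64 ± 0.07), and Cyc1, the haem-carrying cytochrome c1 (-0.46 ± 0.08), were lower at 7 months under all 3 scalings. Cyc1 had 9.92, 10.12 and 10.21 at 7 months, against 10.50, 10.62 and 10.51 at day 10.

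Complex IV reduces oxygen, and its nuclear-encoded subunits surround a core coded in the mitochondrial genome, which the rule does not include. Cox7a2 had 6.72, 6.76 and 6.56 at 7 months, against 9.43, 9.16 and 9.11 at day 10, a difference of -2.55 ± 0.12. Cox4i1 had 12.56, 12.59 and 12.61 at 7 months, against 13.62, 13.68 and 13.60 at day 10 (-1.05 ± 0.06). Both fell without overlap between the groups. Cox5a (-0.02 ± 0.08) and Cox5b (0.02 ± 0.07) were not called, and each had a negative difference of -0.39 to -0.67 with the other scalings.

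Complex V makes ATP. Atp5a1, the alpha subunit, had 6.84, 7.10 and 6.90 at 7 months, against 9.68, 9.66 and 9.49 at day 10, which is 6.34-fold lower (-2.66 ± 0.12, adjusted p = 3.0e-11 in limma). Atp5b, the catalytic beta subunit that pairs with it in the enzyme's head, was 2.03-fold lower (-1.02 ± 0.12). Atp5c1, the gamma subunit, was called higher (0.56 ± 0.10), with 12.20, 12.58 and 12.35 at 7 months against 11.82, 11.82 and 11.79 at day 10, but with median scaling the difference was -0.04. Atp5e (-2.21 ± 0.13) and Atp5h (-1.64 ± 0.07), subunits of the stalks, fell. Atp5j2, a membrane subunit, was not called in any of the 10 comparisons on the quantile scale, with levels from 13.17 to 13.44 over all 18 arrays. Its difference between 7 months and day 10 was -0.62 with median scaling and -0.47 with the series matrix values, and its deposited signals were 8202 to 9962 at 7 months, against 12038 to 12657 at day 10.

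Among all 66 genes, 3 were higher at 7 months than at day 10 under all 3 scalings. They were Atp5s, counted with complex V by its symbol alone and now named Dmac2l, and the muscle-type isoforms Cox6a2 and Cox8b. Atp5s had 8.33, 8.05 and 8.24 at 7 months, against 6.59, 6.69 and 6.53 at day 10, a rise of 1.60 ± 0.08. Cox8b was not measured at day 10 and was at least 1.14-fold higher at 7 months.

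Over the 4 induced ages, 59 of the 66 genes passed the F-test, against 84% of all tested genes, so that a call of this kind did not set the genes apart. Without the day 60 arrays 60 genes passed, and without the 7-month arrays 59. The 5 with the smallest p were Uqcrb, Ndufb2, Atp5a1, Ndufb9 and Ndufb5.

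Brightness and other cell types moved with this comparison. Of the genes with a day 10 level under 10, 4 of 6 under 8 and 9 of 12 from 8 to 10 were lower by over 2-fold, whereas 5 of 30 from 10 to 12 and 1 of 18 above 12 were. Over all tested genes the shares in the same 4 ranges were 9.59%, 20.0%, 17.99% and 9.96%. The summed linear intensity of 6 mesenchymal markers ranged from 2843 to 6997 at 7 months, against 184 to 203 at day 10. All but Dcn were unmeasured at day 10. At 7 months 3 of the 6 were measured on all arrays, and Pdgfrb on none. Dcn had a mean log2 level of 11.85 at 7 months, against 5.865 at day 10, and Lum 8.78 against 4.60. Col1a2 did not rise (5.24 against 5.36). The summed intensity of 6 endothelial markers ranged from 2561 to 3223 at 7 months, against 1271 to 1330 at day 10, with Cdh5 and Kdr unmeasured at both ages. That of 4 red blood cell markers ranged from 1004 to 7910, against 199 to 218, and that of 6 macrophage markers from 1280 to 3963, against 3235 to 3385. The acinar markers, 9 of 9 measured, summed to 190194 to 195519 at 7 months, against 187053 to 192190 at day 10. Their mean log2 levels at these ages were 13.58 to 14.85. Quantile normalization gives all arrays the same highest values, so these sums say little about the amount of acinar RNA. The contribution of these cells and of brightness to the differences was not tested.

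Induced cells were next set against endogenous beta cells, the cells they are named for. At day 10, 38 of 66 genes (57.6%) were higher and 15 lower than in beta cells, against 38.1% and 41.9% of all genes. The median difference was 0.39, against -0.02 over all genes. Median scaling gave 41 higher and 11 lower. Under all 3 scalings 31 were higher and 11 lower, against 25.7% and 39.9% of all genes.

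At day 30, 28 genes were higher and 22 lower than in beta cells, against 34.6% and 39.9% of all genes, with a median of 0.03. Under all 3 scalings the 28 remained higher but 11 were lower, against 30.2% and 35.9% of all genes, and the median was 0.24 with median scaling and 0.28 with the series matrix values. At day 60, 14 were higher and 37 lower, against 34.6% and 43.2%, with a median of -0.22. At 7 months, 15 were higher and 36 lower, against 34.7% and 43.2%, with a median of -0.21 beside -0.10 over all genes. Under all 3 scalings 10 were higher and 37 lower at day 60, against 26.2% and 41.9% of all genes, and with the 7-month arrays left out 14 were higher and 38 lower. Median scaling gave 10 higher and 44 lower at day 60, and 6 higher and 48 lower at 7 months. The 4 comparisons share the beta arrays.

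At 7 months the genes lower than in beta cells made up 54.5% of the 66, and 13 genes (19.7%) were lower by over 2-fold, against 16.8% of all genes. Under all 3 scalings 36 genes were lower and 4 higher at 7 months, against 42.3% and 23.9% of all genes. The 4 were Cox7a2l, Cox7c, Cox8b and Ndufa3. With the day 60 arrays left out, 37 genes were lower and 15 higher at 7 months.

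Atp5b stood furthest below beta cells at each age. Its levels were 11.78, 11.84 and 11.80 at day 10, 11.76, 11.80 and 11.67 at day 30, 10.83, 10.45 and 10.89 at day 60 and 10.83, 10.50 and 11.03 at 7 months, against 14.44, 14.43 and 14.46 in beta cells. All induced arrays lay under all beta arrays. The differences were -2.63, -2.70, -3.72 and -3.65 (SE 0.12 each) from day 10 to 7 months, the last of them 12.6-fold lower with an adjusted p of 3.0e-13 in limma.

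Atp5g1 was also below beta cells at each age. It is 1 of 3 genes, with Atp5g2 and Atp5g3, that code for the same mature c subunit of the ATP synthase ring. Atp5g1 had 11.64, 11.66 and 11.92 at 7 months, against 13.69, 13.61 and 13.67 in beta cells (-1.92 ± 0.08), and was also lower at day 10 (-1.66), day 30 (-2.05) and day 60 (-1.97). Atp5g3 was lower at 7 months too (-0.50 ± 0.07). Atp5g2 went the other way, with 11.49, 11.44 and 11.46 at day 10, 10.77, 10.71 and 10.70 at day 30, 10.59, 10.48 and 10.52 at day 60 and 10.62, 10.66 and 10.63 at 7 months, against 10.06, 9.86 and 9.88 in beta cells. It was higher by 1.53 ± 0.06 at day 10, and its rise of 0.71 at 7 months was 0.16 with the series matrix values, where it was not called.

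Ndufc2, an accessory subunit of complex I, had 11.24, 11.25 and 11.29 at 7 months, against 13.02, 13.03 and 12.96 in beta cells (-1.74 ± 0.07). It was lower at day 10 as well (-1.02 ± 0.07). Ndufa2 was lower at day 30 (-1.08 ± 0.06) and at 7 months (-1.06 ± 0.06).

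Ndufb9, Sdhd, Ndufb4 and Cox7a2 were above beta cells at day 10 and below them at 7 months under all 3 scalings. Ndufb9 was higher by 1.20 ± 0.14 at day 10 and by 0.51 ± 0.14 at day 30, and it was lower at day 60 (-1.85 ± 0.14) and at 7 months (-1.99 ± 0.14). Sdhd was higher at day 10 (1.26 ± 0.17) and lower at 7 months (-1.34 ± 0.17). Ndufb4 was higher at day 10 (1.72 ± 0.14) and day 30 (1.48 ± 0.14), and at least 1.23-fold lower at 7 months. Atp5a1 differed by -2.07 ± 0.12 at day 60 and by -2.27 ± 0.12 at 7 months, and its difference of 0.39 ± 0.12 at day 10 was -0.09 with the series matrix values. Cox7a2 differed by 1.16 ± 0.12 at day 10 and by -1.39 ± 0.12 at 7 months. Uqcrb differed from beta cells by -0.54 ± 0.06 at day 10, -2.15 ± 0.06 at day 60 and -2.36 ± 0.06 at 7 months, which is 5.12-fold lower at 7 months. The 3 genes with the most positive difference at day 60 and at 7 months were Cox8b, Ndufa3 (0.90 and 0.95, SE 0.06 each) and Cox7c (0.79 and 0.78, SE 0.06 each), all higher under the 3 scalings.

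By complex, the counts were as follows. At 7 months complex I had 4 genes higher and 17 lower than in beta cells (median -0.29), complex II 0 and 2, complex III 0 and 5, and complex V 4 and 8 (median -0.41). With median scaling and with the series matrix values complex I had 1 higher and 25 lower (medians -0.74 and -0.65), and the medians of complex V were -0.67 and -0.64. Complex IV had 7 higher and 3 lower (median 0.19), but 3 higher and 5 lower with median scaling (median -0.05), so that its direction depended on the scale. At day 10 complex IV had 9 higher and 1 lower (median 0.60), and complex I had 17 higher and 6 lower (median 0.44), both with positive medians under all 3 scalings. The genes nearest the median were Ndufb8 at day 10 (0.39) and day 30 (0.05), Ndufa8 at day 60 (-0.23) and Ndufs8 at 7 months (-0.18), of which the day 30 and 7-month values were not called.

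**Figure D2:**
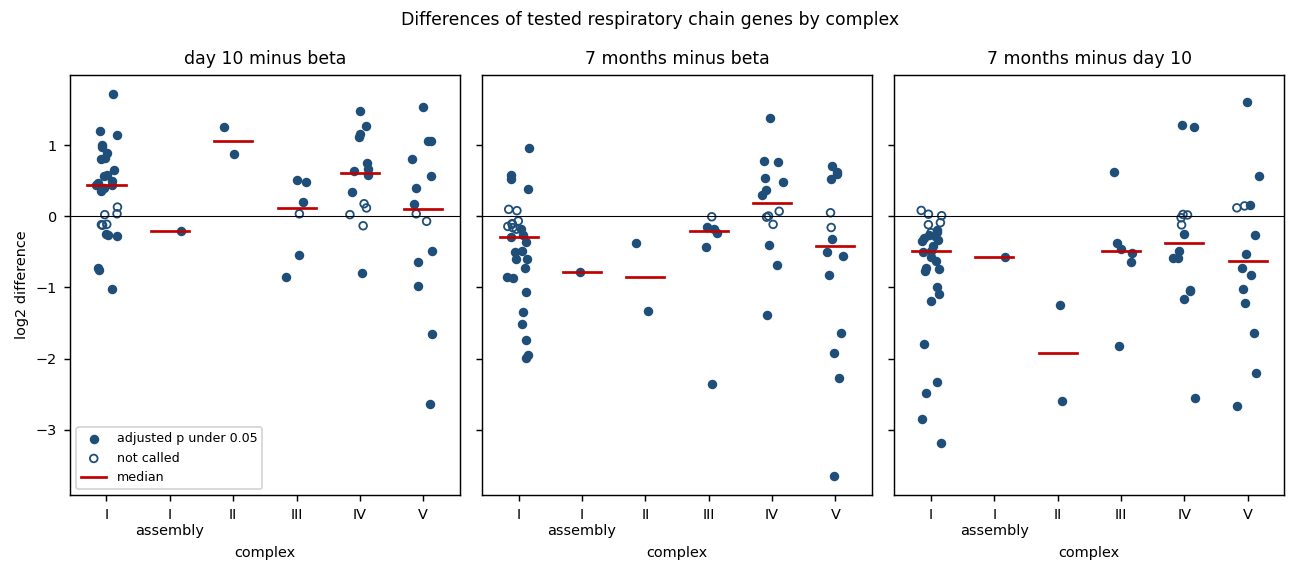
Each point is 1 of the 66 tested genes, placed by complex, and the vertical axis is its log2 difference for day 10 minus beta, 7 months minus beta and 7 months minus day 10. Filled points have an adjusted p under 0.05 and red bars are medians; in the last panel the median of each complex is below 0 and complexes I, II, III, IV and V each hold genes under -1.

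Acinar RNA differed between induced and beta cells. The 9 acinar markers summed to 187053 to 195519 in the 12 induced arrays, against 5765 to 6873 in beta cells, where Cuzd1 was unmeasured, and 203158 to 208536 in acinar cells. How near the induced sums lie to the acinar ones is limited by the normalization of the brightest genes, as stated above. The beta markers, 9 of 10 of which are in the table, summed to 25863 to 26821 at day 10 and to 53497 to 64270 at 7 months, against 72339 to 73021 in beta cells. This linear sum is weighted to the brightest, Ins1 (mean log2 14.39 at 7 months against 14.69) and Ins2 (14.75 against 14.87). Nkx6-1 (8.748 against 10.925), Slc30a8 (8.563 against 9.886), Iapp (11.195 against 11.966) and G6pc2 were lower too. Mafa (8.01 against 5.276), Slc2a2 (9.475 against 8.402) and Ucn3 (10.13 against 10.029) went the other way. Other islet hormones summed to 17263 to 27523 at 7 months, against 47916 to 50173 in beta cells. In mean log2 levels Gcg (12.72 against 14.56), Sst (10.24 against 14.22) and Ppy (7.56 against 12.43) were lower. Ghrl went the other way (13.80 against 4.95). Duct markers summed to 2427 to 5604, against 11682 to 12059, with Krt7 (9.42 against 11.96) and Spp1 (11.6 against 12.9) lower. The gene listed as Krt1-19 (7.12 against 5.11), Sox9 (5.45 against 4.44) and Cftr (5.4 against 4.4) went the other way. These 3 were unmeasured in beta cells. Mesenchymal markers summed to 2843 to 6997 at 7 months, against 132 to 135 in beta cells, where all 6 were unmeasured. Endothelial markers summed to 2561 to 3223, against 374 to 402, macrophage markers to 1280 to 3963, against 233 to 260, and red blood cell markers to 1004 to 7910, against 90.3 to 98.3. The contribution of RNA from these cells to the differences from beta cells was not tested.

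Beta cells and acinar cells differed in which subunit genes they expressed more. Of 66 genes 17 were higher in beta cells than in acinar cells and 36 lower, against 42.1% and 37.4% of all genes, with a median of -0.29 beside 0.06 over all genes. The split turned to 44 higher and 9 lower with median scaling and 56 and 3 with the series matrix values, where the all-gene medians were 0.95 and 1.06. Measured from the median of all genes, the 66 genes stood at -0.35, -0.31 and -0.01 under the 3 scalings. The same 17 genes were higher under all 3, against 41.3% of all genes, and 3 were lower (Cox7b, Ndufa4 and Ndufb4), against 10.1%.

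Cox6a2, the heart and skeletal muscle isoform of the COX6A subunit, separated the 2 cell types most. It had 10.90, 10.97 and 10.89 in beta cells and was not measured on any acinar array, a difference of at least 32.9-fold. Atp5b (2.23 ± 0.12, 4.68-fold), Ndufc2 (1.68 ± 0.07) and Atp5g1 (1.58 ± 0.08) followed. Cox8a, Ndufv1 and Atp5g3 were also among the 17.

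Cox7b was lower in beta cells, with 5.39, 5.69 and 5.38, against 7.39, 7.48 and 8.01 in acinar cells (-2.14 ± 0.15), and only 1 of 3 beta arrays measured it. Ndufb4 (-2.01 ± 0.14) and Ndufa3 (-1.51 ± 0.06) came next, Ndufa3 with a direction that was not called under all 3 scalings. Ndufa4, named for complex I and counted with it here, has since been found in complex IV. It had 11.40, 11.36 and 11.27 in beta cells, against 12.77, 12.82 and 12.76 in acinar cells (-1.44 ± 0.08). Cox4i1, nearest the median, differed by -0.31, and by 0.08 with median scaling.

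Induced cells stood below acinar cells in most of these genes from day 30 on, on the quantile scale. The counts were 25 higher and 27 lower at day 10 (40.2% and 39.6% of all genes), 18 and 38 at day 30 (39.7% and 39.7%), 9 and 48 at day 60 (37.6% and 39.4%) and 9 and 47 at 7 months (37.9% and 39.9%). With median scaling they were 60 and 1, 57 and 3, 27 and 23, and 27 and 24. The numbers called under all 3 scalings were 25 higher and 1 lower at day 10, 18 and 0 at day 30, 8 and 10 at day 60, and 8 and 18 at 7 months. The shares of all genes for those lower calls were 12.1%, 5.54%, 6.3% and 7.97%. With the 7-month arrays left out, 9 genes were higher and 48 lower at day 60, and with the day 60 arrays left out 9 were higher and 47 lower at 7 months.

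**Figure D3:**
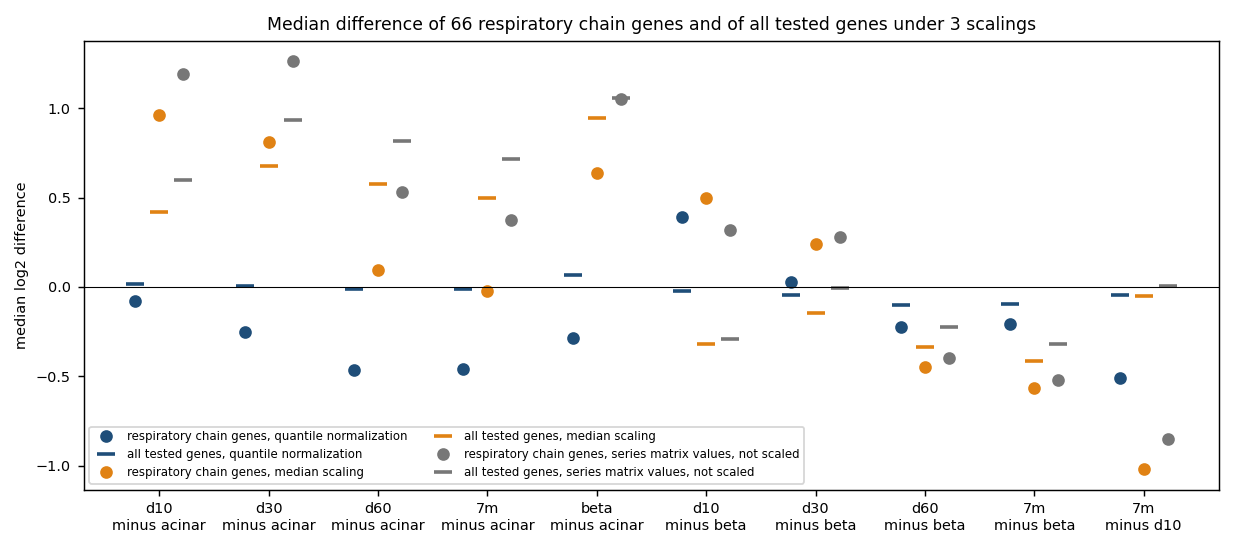
Round points give the median log2 difference of the 66 genes and dashes that of all 8942 tested genes in 10 comparisons, under 3 scalings. Against acinar cells the points change sign with the scale, whereas 7 months minus day 10 is below 0 and day 10 minus beta above 0 in each.

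Some genes were lower than in acinar cells under all 3 scalings at both late ages. Atp5a1 had 7.19, 7.14 and 7.11 at day 60 and 6.84, 7.10 and 6.90 at 7 months, against 10.44, 10.07 and 10.66 in acinar cells. Its differences were -3.24 and -3.44 (SE 0.12 each), and -1.56 and -1.84 with the series matrix values. Ndufb9 differed by -3.34 at day 60 and -3.48 at 7 months (SE 0.14 each), and by -1.64 and -1.87 with the series matrix values. Atp5e (-2.70 and -2.89), measured on 1 of 3 arrays at each of these ages and so near background there, and Cox7b, at least 4.60-fold and 5.16-fold lower, were lower at both ages too.

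On the higher side, Cox7a2l, which takes part in joining complexes III and IV into supercomplexes, had 11.86, 11.91 and 12.01 at day 10, 11.99, 12.10 and 12.02 at day 30, 11.56, 11.26 and 11.51 at day 60 and 11.50, 11.29 and 11.50 at 7 months, against 10.40, 10.38 and 10.46 in acinar cells. Every induced array lay above every acinar array and above every beta array (10.60, 10.73 and 10.65), and each of these calls held under all 3 scalings. The differences from acinar cells were 1.51, 1.63, 1.03 and 1.02 (SE 0.08 each), and those from beta cells 1.26, 1.38, 0.78 and 0.77. Atp5o, the stalk protein that confers oligomycin sensitivity, was higher than in acinar cells at day 10 (1.42 ± 0.10), with 8.69, 8.60 and 8.59 against 7.14, 7.29 and 7.19. Cox8b was at least 1.15-fold higher at day 30, and Atp5s was higher at day 60 (1.01) and at 7 months (1.03).

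For other genes at the ends or the median of the lists against acinar cells the calls depended on the scale, with 1 exception. At day 10 Cox7b was lower under all 3 scalings (-1.79 ± 0.15), and 2 of 3 arrays measured it. The others there were Atp5a1 (-0.78 ± 0.12) and Ndufs4 (-0.79 ± 0.06), a subunit of the peripheral arm, with 0.19 and 0.24 under median scaling, and Atp5g1, nearest the median at -0.08. At day 30 Atp5e (-1.51 ± 0.13), Ndufa4 (-1.43 ± 0.08) and Cox7b (-1.28 ± 0.15) were lower on the quantile scale and not under all 3. The genes nearest the median there, Ndufa7 (-0.26) at day 30 and Ndufa1 at day 60 (-0.43) and 7 months (-0.44), were not called under all 3 either.

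Several complex IV subunits have a broadly expressed isoform and a muscle-type one. Cox6a2 had 10.16, 10.07 and 10.13 at day 10, 10.70, 10.72 and 10.65 at day 30, 11.68, 11.30 and 11.22 at day 60 and 11.61, 11.24 and 11.35 at 7 months, and was unmeasured in acinar cells. It was at least 18.9-, 28.0-, 45.8- and 45.9-fold higher than in acinar cells from day 10 to 7 months. Against beta cells it was lower at day 10 (-0.80 ± 0.21), not called at day 30 or day 60, and called higher at 7 months (0.48 ± 0.21). With median scaling the 7-month difference was 0.05. Its mean was 11.40 both at day 60 and at 7 months, against 10.92 in beta cells, so only the call separated these ages. All day 30 arrays lay below all beta arrays. The error of Cox6a2 shares the spread over all groups, including acinar cells, where the SD was 0.62. Cox6a1, its broadly expressed partner, had 12.53, 12.35 and 12.45 at 7 months, against 12.52, 12.59 and 12.59 at day 10, and was not called over the induced ages on the quantile scale (adjusted p = 0.13 in limma's F-test). Its difference between 7 months and day 10 was -0.12 on that scale, -0.83 with median scaling and -0.67 with the series matrix values.

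Cox8b, a muscle-type isoform in the mouse, was measured on 3 of 3 arrays at day 30, 2 of 3 at day 60 and 3 of 3 at 7 months, and on none at day 10, in beta cells or in acinar cells. At day 30 it was at least 1.79-fold above beta cells, and at 7 months at least 1.54-fold. Cox8a, the broad form, fell between day 10 and 7 months (-0.58 ± 0.10). Cox7a1, the muscle form of COX7A, had 7.24, 7.33 and 7.35 at day 10, 6.05, 6.13 and 6.07 at day 30, 5.63, 6.08 and 6.04 at day 60 and 6.04, 6.18 and 6.21 at 7 months, against 5.84, 5.87 and 5.79 in beta cells. It stood 1.47 ± 0.11 above beta cells at day 10, and the groups did overlap at day 60. From day 10 to 7 months it fell under all 3 scalings (-1.17 on the quantile scale), as did Cox7a2. Cox6b, now Cox6b1, was lower at 7 months than at day 10 by a small margin (-0.25 ± 0.06). Cox4i2 and Cox8c were not tested, and Cox6b2, Cox7b2 and Ndufa4l2 are not analysed here.

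Markers of muscle and brown fat are given beside these isoforms. Acta1, skeletal muscle actin, had mean log2 levels of 12.07, 12.48, 11.67 and 11.65 from day 10 to 7 months, against 6.89 in beta cells and 4.37 in acinar cells. Cidea, a lipid droplet protein of brown fat, had 7.06, 6.97, 5.95 and 6.09, against 4.67 in beta cells and 4.47 in acinar cells. Ckm, the muscle creatine kinase, and Ucp1, the uncoupling protein of brown fat, were unmeasured in all 6 groups. Myh11, smooth muscle myosin, was unmeasured in induced and beta cells, against a mean of 7.31 in acinar cells. The 5 markers summed to 2201 to 5429 at 7 months and 4398 to 4617 at day 10, against 208 to 211 in beta cells and 242 to 247 in acinar cells. Their bearing on the isoforms was not tested.

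Genes around the chain were counted from 5 lists chosen for the pathway, and the shares of all genes called in the same comparisons are those given above. The 5 list medians at 7 months against beta cells were below 0 under all 3 scalings, but so were those of all genes (-0.10, -0.42 and -0.32), and the hypoxia list (-0.13, -0.50 and -0.21) lay near them. Of 17 tested genes of the tricarboxylic acid cycle and pyruvate dehydrogenase, 5 were higher and 11 lower at 7 months than in beta cells (median -0.47). At 7 months against day 10, 5 were higher and 8 lower (median 0.04, and -0.40 with median scaling). Under all 3 scalings 1 was higher and 11 lower than in beta cells, and 4 were higher and 7 lower than at day 10. Dld, the shared lipoamide dehydrogenase, was lower at 7 months than in beta cells (-1.83 ± 0.16), as was Idh2, which makes mitochondrial NADPH (-1.41 ± 0.12). In beta cells 5 were higher and 11 lower than in acinar cells, with Suclg2 (-1.70 ± 0.07) and Dld (-1.57 ± 0.16) furthest apart, but none of the 11 was lower under all 3 scalings.

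Of 13 tested genes for electron entry and inner or outer membrane carriers, 3 were higher and 7 lower at 7 months than in beta cells. At 7 months against day 10, 4 were higher and 8 lower. Under all 3 scalings 0 were higher and 7 lower than in beta cells, and 3 were higher and 8 lower than at day 10. Slc25a3, the phosphate carrier that feeds ATP synthase, was lower at 7 months than in beta cells (-1.52 ± 0.09), as was Vdac3, an outer membrane channel (-1.33 ± 0.07). Gpd2, the mitochondrial glycerol phosphate dehydrogenase, was higher in beta cells than in acinar cells (1.70 ± 0.15), as was Ckmt1, a mitochondrial creatine kinase (1.51 ± 0.10).

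Of 22 tested assembly factors, 6 were higher and 13 lower at 7 months than in beta cells. At 7 months against day 10, 4 were higher and 10 lower. Under all 3 scalings 1 was higher and 13 lower than in beta cells, and 2 were higher and 8 lower than at day 10. The gene listed as 4930455C21Rik, now Timmdc1, a complex I assembly factor, had a mean of 5.72 at 7 months, against 8.39 in beta cells, a difference of -2.66 ± 0.12. Ttc19, a complex III factor, was lower as well (-1.50 ± 0.07), and was higher in beta cells than in acinar cells (2.04 ± 0.07). The gene listed as 1810063B05Rik, now Coa6, a complex IV factor, was lower in beta than in acinar cells (-1.68 ± 0.08), but 0.10 with the series matrix values.

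Of 12 tested genes of mitochondrial biogenesis, 2 were higher and 7 lower at 7 months than in beta cells. At 7 months against day 10, 4 were higher and 4 lower. Under all 3 scalings 2 were higher and 7 lower than in beta cells, and 3 were higher and 4 lower than at day 10. Esrra, a nuclear receptor that acts on respiratory genes, was higher at 7 months than in beta cells (1.38 ± 0.13), as was Polg2, a subunit of the mitochondrial DNA polymerase (1.07 ± 0.20). Esrra (-1.71 ± 0.13) and Polg (-1.25 ± 0.12) were lower in beta than in acinar cells, though neither under all 3 scalings. Nrf1, whose motif is described above, was lower at 7 months than in beta cells (-0.64 ± 0.12) and was not called between 7 months and day 10 (0.03 ± 0.12).

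Of 7 tested hypoxia response genes, 1 was higher and 3 lower at 7 months than in beta cells. At 7 months against day 10, 1 was higher and 3 lower. These numbers were the same under all 3 scalings. The gene listed as Ldh1, now Ldha, codes for the lactate dehydrogenase subunit that beta cells normally keep low. It had a mean of 10.22 at 7 months, against 7.97 in beta cells, and was higher by 2.25 ± 0.28. Egln1, an oxygen-sensing hydroxylase, was lower at 7 months than in beta cells (-0.38 ± 0.13). Ldh1 (-3.41 ± 0.28) and Pdk1, a kinase that restrains pyruvate dehydrogenase (-2.63 ± 0.07), were lower in beta than in acinar cells under all 3 scalings.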

How the data were processed

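Per the file headers, the table the authors deposited gives, per array and gene symbol, an intensity beside its detection p-value. They also deposited a series matrix whose log10 values for 18112 symbols equal the log10 of those deposited intensities. How probes were summarised, and with which software and background handling, is not given in the sources used here. Groups and replicate numbers were read from the sample titles.

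Intensities were corrected by normexp in limma 3.58.1 (R 4.3.3), with negative controls inferred from detection p-values on their grid of 1 over 798, an offset of 16, quantile normalization and log2. The filter kept 8942 of 18118 genes, those detected (p-value under 0.01) on 3 arrays or more. All 18 arrays entered 1 limma model (lmFit and eBayes) with 10 comparisons and an F-test over the induced ages, and a call is an adjusted p under 0.05 (Benjamini-Hochberg, over all tested genes). The step was tested on simulated data. Errors beside differences are standard errors of the fit.

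A gene is measured on an array where its detection p-value is under 0.01 and its signal exceeds the mean of the negative controls. Where no array of a group measured a gene, its difference is a lower bound (at least N-fold), taken against the lowest detected signal or its own value, whichever is higher. The number of arrays limits the precision.

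The genes, lists and tests were chosen with earlier results of these data known. Genes are named as fixed subunits and isoform pairs, the 3 highest and 3 lowest called in each comparison, the gene nearest the median, the 5 smallest p of the F-test, and the 2 largest differences of each outside list in beta against acinar cells and 7 months against beta cells, and others were named after their values were seen. The values of 1 gene of the fixed subunits are not reported here. Mouse symbols were matched to RefSeq (GRCm38.p6), which updated Uqcr to Uqcr11, Cox6b to Cox6b1, Atp5f1 to Atp5pb and Atp5s to Dmac2l. Alternatives were other background handling, 2 other scalings, 2 other filters, a replicate block, fits on the compared groups alone, and leaving out each array.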

Additional observations from a re-analysis of the deposited data

How the results depend on the processing

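The counts depended on the scale and on no other setting tried. Given as higher and lower, they became 44 and 9 for beta against acinar cells with median scaling, and 56 and 3 with the series matrix values. Against acinar cells, median scaling gave 60 and 1 at day 10, 57 and 3 at day 30, 27 and 23 at day 60, and 27 and 24 at 7 months. The series matrix values gave 65 and 1, 62 and 0, 45 and 10, and 42 and 18 at the same ages. Against beta cells, 13 genes were lower at day 30 with the series matrix values, and at 7 months 6 were higher with median scaling and 4 with the matrix values. At 7 months against day 10, 3 were higher with either.

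Of the differences named for their rank or for lying nearest the median in a comparison, 9 reversed with the scale. With median scaling they were 0.077 for Cox4i1 in beta against acinar cells, 0.19 for Atp5a1, 1.06 for Atp5g1 and 0.24 for Ndufs4 at day 10 against acinar cells, and 0.83 for Ndufa7 at day 30. With the series matrix values the same 5 were 0.515, 0.43, 1.29, 0.49 and 1.29, and Atp5e (0.047) and Cox7b (0.18) at day 30 and Ndufa1 at day 60 (0.25) and 7 months (0.10) reversed too. Other differences whose sign changes with the scale, such as those of Atp5c1, Dld and Polg, are given above or were not called under all 3 scalings. The medians over all genes moved with the scale too, by the values given above, and the cause was not tested.

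Leaving out each array in turn gave 48 to 50 genes lower and 5 to 7 higher at 7 months against day 10, 34 to 40 lower and 13 to 15 higher at 7 months against beta cells, 36 to 39 higher and 14 to 15 lower at day 10 against beta cells, and 55 to 60 passing the F-test. No count moved past 1.5 times with any 1 array left out. With the replicate block, 49 genes were lower and 6 higher at 7 months against day 10, and no count moved past 1.5 times. The replicate numbers pair arrays between day 60 and 7 months alone (correlation of deviations from the group means 0.79 to 0.86, against -0.04 to 0.07 between other groups). The settings that leave out day 60 or 7 months were added after the data had been seen. Differences near background, as in Ndufb4, Atp5e, Cox7b and Cox8b, are limited by signal.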

Other observations

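Atp5j, a stalk subunit of ATP synthase, and Sdhc, a membrane anchor of complex II, did not pass the filter although they were bright. They were singled out after their values had been seen, outside the rule by which genes are named. The deposited signals of Atp5j ranged from 1420 to 2512 and those of Sdhc from 288 to 1398 over the 18 arrays, yet 0 arrays counted as measured for either gene. The reason was not tested.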
